A study of Mus musculus with 6 samples.

Results

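RNA sequencing (RNA-seq) was used to follow 10 genes of triglyceride handling in skeletal muscle of control and miDrp1KO mice. They are the 3 lipins *Lpin1*, *Lpin2* and *Lpin3*, the lipases *Pnpla2* and *Mgll*, the lipase co-regulators *Abhd5* and *G0s2*, the droplet coat genes *Plin2* and *Plin5*, and *Dgat1*, which makes triglyceride. They were taken by symbol from the 27179 genes listed in the count files, and all 10 were found. The choice rested partly on *Lpin1* and *Pnpla2* being lower in the miDrp1KO libraries, so for these 2 genes the values are given as a description, with no test. Of the 10, 9 were among the 16483 genes with enough counts to be tested.

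Triglyceride is built on glycerol phosphate. The lipins remove the phosphate from phosphatidic acid to give diacylglycerol, and *Dgat1* adds the last fatty acid. In muscle the product is kept in small lipid droplets coated by perilipins and taken apart stepwise, first by adipose triglyceride lipase, the product of *Pnpla2*, then by hormone-sensitive lipase and last by the monoglyceride lipase of *Mgll*. The protein of *Abhd5* activates adipose triglyceride lipase, and that of *G0s2* inhibits it. Lipin 1 is the main lipin of muscle and fat and is also known as a nuclear partner of the coactivator Pgc1α.

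Quadriceps muscle was collected 3 weeks after deletion of *Dnm1l*, the gene of the mitochondrial fission protein Drp1. The 3 control mice (libraries B, C and D) were labelled Control f/f, for floxed *Dnm1l* without Cre, and the methods of the study also allow controls with a single floxed allele. The 3 miDrp1KO mice (A, E and F) had floxed *Dnm1l* together with HSA-MerCreMer, a Cre driven by the human skeletal actin promoter that tamoxifen switches on. Mice of both groups were given tamoxifen at 3 months of age and were fed normal chow. The methods of the study give a fast of 6 hours before mice were studied, without naming the mice used for RNA-seq. Cre acts in the muscle fibres, whereas the RNA came from whole muscle with its fat, vessel and immune cells. *Dnm1l* itself was at 156, 114 and 140 CPM (counts scaled to a common library size with TMM factors, as throughout) in control libraries B, C and D. It was at 70.6, 81.3 and 66.2 CPM in A, E and F, below every control library (log2 fold change -0.91, SE 0.18, edgeR adjusted p = 0.362). The labels do not say whether the libraries of a group came from separate litters, so p-values measure only the spread between these animals.

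Libraries held 13989588 to 62042255 counts. Ribosomal RNA took 1.48 to 24.4% of them, with high and low shares in both groups. TMM factors were 0.840, 0.982 and 0.969 in B, C and D and 0.846, 1.42 and 1.04 in A, E and F. Scaled by total counts alone, E would not lie below every control library for *Dnm1l*, *Lpin1*, *Pnpla2* or *Plin2*. Whether the groups overlapped in CPM was read with these factors only. Of the 16483 genes tested with edgeR's quasi-likelihood test, 2 (0.0121%) had a Benjamini-Hochberg adjusted p under 0.05, and 1796 (10.9%) had an unadjusted p under 0.05. None of the 7 tested members other than *Lpin1* and *Pnpla2* was among the 2, and limma voom, run as an alternative, called none of the 7. DESeq2 called none of them either, but at its default settings it gave no adjusted p to *Lpin2*, *Lpin3*, *Plin5* and *Dgat1*. Without independent filtering it gave one to all 9 tested members and again called none of the 7. Slow fibre markers differed widely between libraries of both groups. The summed level of 8 slow fibre markers was 446 CPM in B, 54.2 in C and 87.3 in D, against 82.0 in A, 728 in E and 647 in F.

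*Lpin1*, the main lipin gene of muscle, was lower in miDrp1KO muscle. It lies on chr12:16535669-16653903 (GRCm38, Entrez 14245). Its level was 290, 328 and 388 CPM in B, C and D, whereas A, E and F held 239, 215 and 155 CPM. On this TMM scale every miDrp1KO library was below every control library. The means were 335 ± 49.5 CPM (SD, n = 3) and 203 ± 43.3 CPM (SD, n = 3), a ratio of 0.607 and a log2 fold change of -0.72 (SE 0.22). At least 3233 counts lay behind each value.

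**Figure D1:**
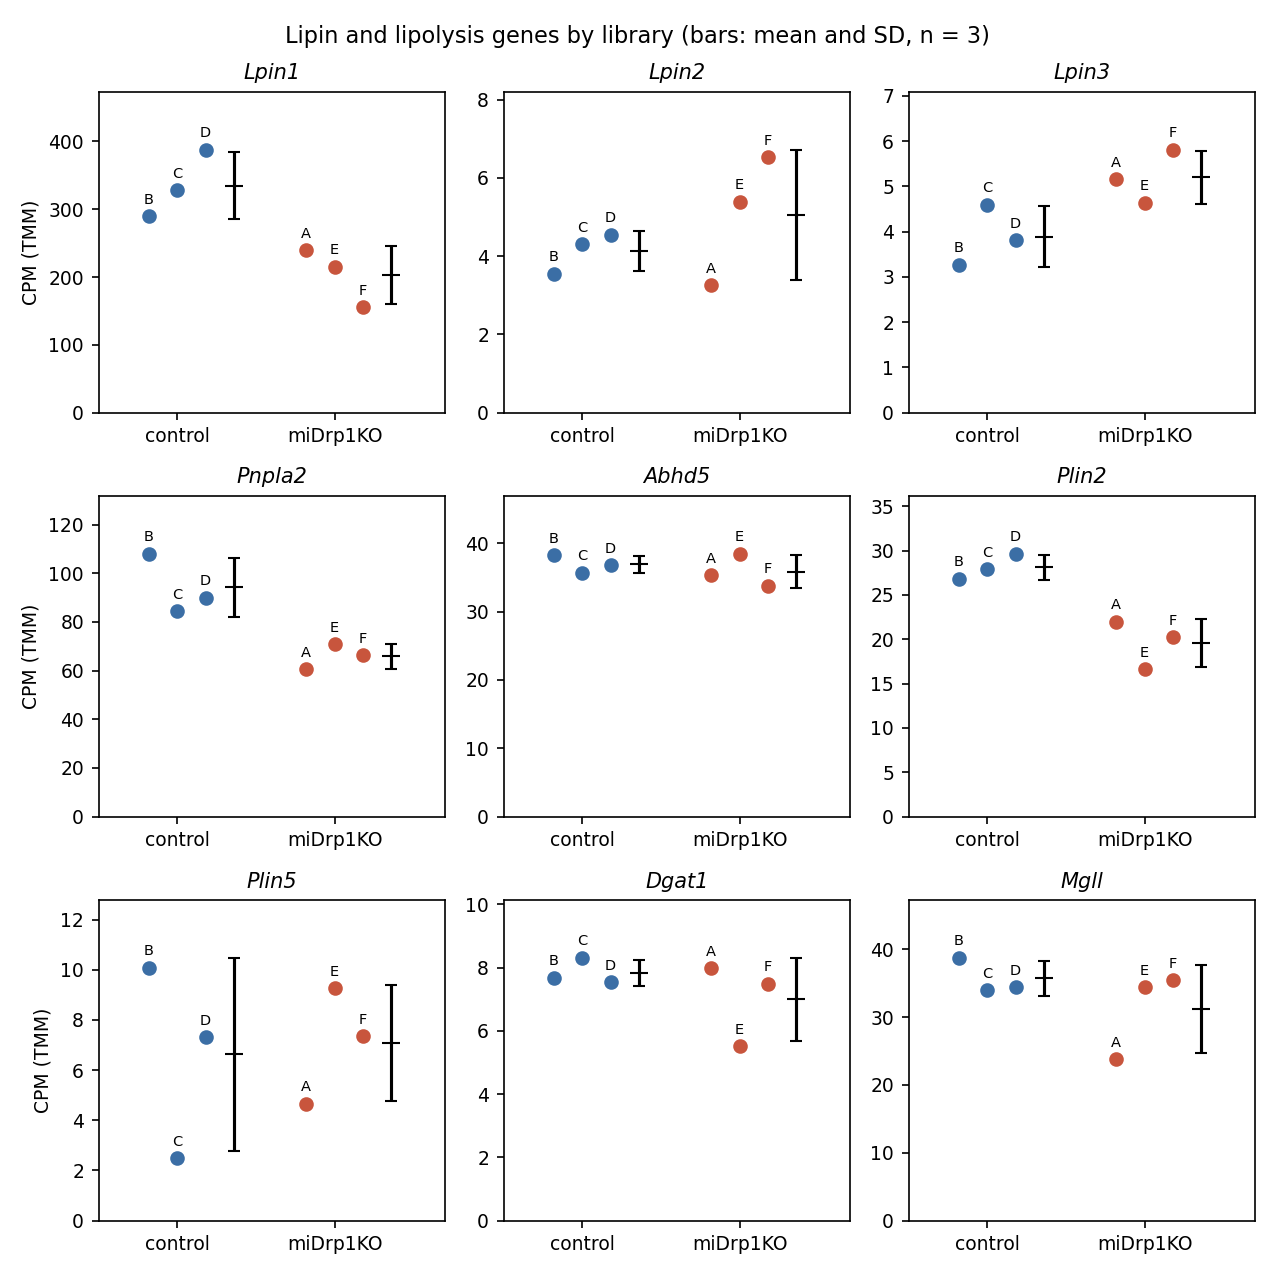
Level of each tested member in every library, in CPM on linear axes that start at 0. Blue points are control and red points miDrp1KO libraries, letters name the libraries, and bars give mean and SD of 3 libraries. *Lpin1*, *Pnpla2* and *Plin2* have all red points below the blue ones, *Lpin3* has all red points above, and the other 5 genes overlap.

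The promoters of the genes with the clearest pattern are shown so that the lower genes *Lpin1*, *Pnpla2* and *Plin2* can be read beside *Abhd5*, whose levels overlapped between the groups. Each window runs from 250 bases before to 50 bases after a start annotated by RefSeq on GRCm38.p6, and is printed 5′ to 3′ on the strand of the gene. The windows are chr12:16610917-16611216 (minus strand) for *Lpin1*, chr7:141454938-141455237 (plus) for *Pnpla2*, chr4:86670010-86670309 (minus) for *Plin2* and chr9:122351366-122351665 (plus) for *Abhd5*. The start used for *Lpin1* and that used for *Plin2* lie inside the span of the gene, downstream of its outermost 5′ end. Capitals mark matches, on either strand, to the motifs named after the sequences.

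Lpin1: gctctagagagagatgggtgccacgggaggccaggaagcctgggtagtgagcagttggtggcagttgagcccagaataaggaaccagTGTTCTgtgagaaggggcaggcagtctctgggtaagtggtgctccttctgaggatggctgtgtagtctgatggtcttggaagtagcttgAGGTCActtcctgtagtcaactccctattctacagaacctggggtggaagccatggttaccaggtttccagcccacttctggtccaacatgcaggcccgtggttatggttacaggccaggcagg

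Pnpla2: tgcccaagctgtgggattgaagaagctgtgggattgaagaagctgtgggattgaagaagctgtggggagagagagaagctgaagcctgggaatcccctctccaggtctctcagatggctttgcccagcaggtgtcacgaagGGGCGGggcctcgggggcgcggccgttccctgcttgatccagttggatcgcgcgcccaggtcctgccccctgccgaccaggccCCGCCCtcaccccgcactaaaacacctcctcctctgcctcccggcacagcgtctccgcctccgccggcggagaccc

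Plin2: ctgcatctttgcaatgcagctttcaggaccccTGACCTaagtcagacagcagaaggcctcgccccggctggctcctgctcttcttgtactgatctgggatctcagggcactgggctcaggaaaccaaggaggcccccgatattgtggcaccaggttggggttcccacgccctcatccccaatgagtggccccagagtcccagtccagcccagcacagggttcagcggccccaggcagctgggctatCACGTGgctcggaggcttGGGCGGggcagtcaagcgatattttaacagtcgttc

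Abhd5: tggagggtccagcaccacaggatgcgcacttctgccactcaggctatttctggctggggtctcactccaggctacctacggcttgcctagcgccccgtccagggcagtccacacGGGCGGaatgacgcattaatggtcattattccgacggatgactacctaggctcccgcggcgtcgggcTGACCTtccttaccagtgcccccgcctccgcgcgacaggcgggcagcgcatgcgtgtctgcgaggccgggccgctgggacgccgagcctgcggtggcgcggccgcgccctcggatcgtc

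In all, 8 short motifs were searched on both strands in these windows and in all 32851 windows of the same length in the RefSeq table. The hormone receptor half-site AGGTCA, found in 16.3% of all windows, was present in *Lpin1*, *Plin2* and *Abhd5* but not in the *Pnpla2* window. Its letters are contained in those of the NR4A monomer element AAAGGTCA (1.51% of windows) and the ERR element TCAAGGTCA (0.423%), and neither of these longer forms was in any of the 4 windows. The GC box GGGCGG (35.7%) was in *Pnpla2*, *Plin2* and *Abhd5*, the E-box CACGTG (7.15%) in *Plin2*, and the glucocorticoid half-site AGAACA (19.0%) in *Lpin1*. The CRE TGACGTCA (1.79%) and the FOXO site GTAAACA (3.65%) had no match in the 4 windows. No motif was common to the 3 lower genes. A match describes letters in a window and was not tested as a binding site. The *Lpin1* window held 55.3% G and C, near the median of 52.7% over all windows, and the *Pnpla2*, *Plin2* and *Abhd5* windows held 65.3%, 60.7% and 67.7%.

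The other lipins were far lower and did not move with *Lpin1*. *Lpin3* (chr2:160880670-160906000, Entrez 64899) was at 3.27, 4.59 and 3.81 CPM in B, C and D and at 5.15, 4.63 and 5.81 CPM in A, E and F. All miDrp1KO libraries were above all control libraries, though E was barely above C. Its log2 fold change was 0.42 (SE 0.22), which did not pass the test (edgeR adjusted p = 0.523, two-sided exact permutation p = 0.1, the smallest that 20 splits of the mice allow). *Lpin2* (chr17:71183532-71249818, Entrez 64898) was at 3.55, 4.30 and 4.55 CPM in B, C and D and at 3.26, 5.39 and 6.53 CPM in A, E and F. The groups overlapped, since A was the lowest of all 6 libraries, and the log2 fold change of 0.29 (SE 0.27) did not pass the test (edgeR adjusted p = 0.726). With 59 to 273 counts for *Lpin2* and 63 to 229 for *Lpin3* in a library, counting error is a visible part of the spread. In C, for example, the 95% Poisson interval of *Lpin2* ran from 3.27 to 5.55 CPM.

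Per length, lipin RNA was nearly all *Lpin1*. Of the summed CPM per kilobase of exon of the 3 lipins, *Lpin1* made up 96.2%, 95.5% and 96.6% in B, C and D, and 93.7%, 92.9% and 88.4% in A, E and F. The lowest share was in F, the library with the lowest *Lpin1* and the highest *Lpin2* and *Lpin3* CPM. The sum of the 3 genes was 36.1 ± 5.21 CPM per kilobase in control and 22.8 ± 4.24 in miDrp1KO libraries (SD, n = 3). These shares rest on the *Lpin1* values that chose the gene and are given without a test.

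*Pnpla2*, the gene of adipose triglyceride lipase, was also lower in miDrp1KO muscle. It lies on chr7:141455188-141460743 (Entrez 66853). Its level was 108, 84.5 and 90.0 CPM in B, C and D. The values in A, E and F, 60.5, 70.8 and 66.2 CPM, were all below these. The means were 94.1 ± 12.3 and 65.8 ± 5.19 CPM (SD, n = 3), a ratio of 0.699 and a log2 fold change of -0.52 (SE 0.17). The orders within the groups differed from those of *Lpin1*. Control B had the highest *Pnpla2* and the lowest *Lpin1* of the controls, and A had the lowest *Pnpla2* and the highest *Lpin1* of the miDrp1KO libraries.

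No difference was detected for the activator of this lipase. *Abhd5* (chr9:122351616-122381524, Entrez 67469) was at 38.2, 35.6 and 36.8 CPM in B, C and D and at 35.3, 38.4 and 33.7 CPM in A, E and F. Relative to their mean the values varied less than those of the other tested members, with a coefficient of variation of 3.50% in control and 6.67% in miDrp1KO libraries. The log2 fold change of -0.04 (SE 0.14) changed sign in 4 of the 16 alternative analyses, with an edgeR adjusted p of 0.945 and an exact permutation p of 0.5. A gene on the opposite strand, *A730085K08Rik*, overlaps *Abhd5*, and the strand setting of the counting is not given in the sources used here. Within each library the ratio of *Pnpla2* to *Abhd5* counts, which does not depend on the scaling between libraries, was 2.83, 2.37 and 2.45 in B, C and D and 1.71, 1.84 and 1.96 in A, E and F.

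*G0s2* (chr1:193272160-193273188, Entrez 14373), the inhibitor, had 0 counts in all 6 libraries. A floor of 3 counts equals 0.050 CPM in D, the deepest library, and 0.219 CPM in C, the shallowest. It could not be tested, and no fold change is given. In all, 722 listed genes had 0 counts in every library, 146 of them annotated as protein coding. How reads on *G0s2* were assigned was not tested, so the zeros are not read as absence of the RNA.

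*Mgll* (chr6:88724412-88828360, Entrez 23945), which acts on monoglycerides, was at 38.7, 34.0 and 34.4 CPM in B, C and D and at 23.8, 34.4 and 35.4 CPM in A, E and F. Library A alone was low, and E and F lay within the control range. Its log2 fold change was -0.19 (SE 0.18, edgeR adjusted p = 0.724, exact permutation p = 0.5). An opposite-strand gene, *Gm26588*, overlaps *Mgll*.

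Among the droplet coats, *Plin2* was lower in miDrp1KO libraries by about as much as *Pnpla2*, but it did not pass the test over all genes. *Plin2* (chr4:86626910-86670217, Entrez 11520) codes for the perilipin found on droplets of most cell types. It was at 26.8, 27.9 and 29.6 CPM in B, C and D and at 22.0, 16.6 and 20.3 CPM in A, E and F. All miDrp1KO libraries were below all control libraries, and the control values were close together (28.1 ± 1.43 against 19.6 ± 2.72 CPM, SD, n = 3). The log2 fold change was -0.52 (SE 0.16), with an unadjusted p of 0.00727 and an adjusted p of 0.379 in edgeR's quasi-likelihood test, and an exact permutation p of 0.1, the smallest possible. Over the 16 alternative analyses the log2 fold change ran from -0.60 to -0.41. The adjusted p ran from 0.142 to 0.877 over the 15 of them that gave it one.

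*Plin5* (chr17:56111597-56117606, Entrez 66968), the perilipin of oxidative tissues that links droplets to mitochondria, was the most variable member within the control group. It was at 10.1, 2.48 and 7.31 CPM in B, C and D and at 4.67, 9.27 and 7.34 CPM in A, E and F. The coefficient of variation within the control group was 58.1%, against 5.08% for *Plin2*, and the groups overlapped fully. C held only 34 *Plin5* counts, with a 95% Poisson interval of 1.72 to 3.46 CPM. The log2 fold change was 0.09 (SE 0.49, edgeR adjusted p = 0.966, exact permutation p = 0.8) and became -0.30 without control replicate C.

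*Plin5* was read beside the slow fibre markers given above. The libraries with the lowest summed slow fibre level, C, A and D, were the 3 with the lowest *Plin5*, and B, E and F were the 3 highest in both, though *Plin5* in D and F was nearly equal. All 8 slow fibre markers had a fitted fold change above 0, yet none had an unadjusted p under 0.05, and control B was among the high libraries and miDrp1KO replicate A among the low ones. The part of fibre type in the *Plin5* values was not tested.

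*Dgat1* (chr15:76502012-76512021, Entrez 13350), which completes triglyceride, overlapped between the groups. It was at 7.67, 8.31 and 7.53 CPM in B, C and D and at 7.97, 5.52 and 7.49 CPM in A, E and F. E was below the control range, F was just below it, A was within it, and the log2 fold change was -0.17 (SE 0.20, edgeR adjusted p = 0.794, exact permutation p = 0.4).

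Of the 9 members tested, 6 had a fold change below 0 and 3 above 0, where 48% of all genes tested were below 0. The median log2 fold change was -0.17 over these 9 and 0.02 over all genes tested. Without miDrp1KO replicate A it was -0.01 over the members and 0.06 over all genes tested. *Lpin1*, *Pnpla2* and *Plin2* had all miDrp1KO libraries below all controls, which held for 10.3% of all genes tested, and *Lpin3* had them above, which held for 7.67%. Of the other 7 members tested, *Plin2* alone had an unadjusted p under 0.05, in the lower direction, as did 6.22% of all genes. Since *Lpin1* and *Pnpla2* were chosen on this contrast, nothing is read from the counts that include them.

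Members were also compared as ratios of counts within a library. Of the 36 pairs of tested members, 11 had ratios that did not overlap between the groups. Pairs with *Lpin1* or *Pnpla2* are among these 11, so nothing is read from that count. Of the pairs that use neither *Lpin1* nor *Pnpla2*, 5 of 21 did not overlap, against 15.8% of all pairs of genes. The ratio of *Plin2* to *Dgat1* was 3.49, 3.36 and 3.94 in B, C and D, and with 2.76, 3.02 and 2.71 it was lower in each of A, E and F. The ratio of *Abhd5* to *Plin2* was 1.43, 1.28 and 1.24 in B, C and D and 1.61, 2.31 and 1.67 in A, E and F. Among the lipins, the ratio of *Lpin1* to *Lpin3* was 88.6, 71.4 and 102 in B, C and D and 46.5, 46.4 and 26.7 in A, E and F. It uses *Lpin1* and is given as a description. The ratios among *Lpin1*, *Pnpla2* and *Plin2* all overlapped between the groups.

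Each member was also set against every other gene with counts in all libraries. The ratio was lower in every miDrp1KO library for 7.88% of all ordered pairs of such genes. For *Plin2* this held with 42.6% of 16295 genes, for *Mgll* with 14.3%, for *Dgat1* with 11% and for *Abhd5* with 8.6%, and then with 1.72% for *Lpin2*, 1.21% for *Plin5* and 1.02% for *Lpin3*. The shares of 52.5% for *Lpin1* and 39.6% for *Pnpla2* follow from the choice of these genes, and nothing is read from them.

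**Figure D2:**
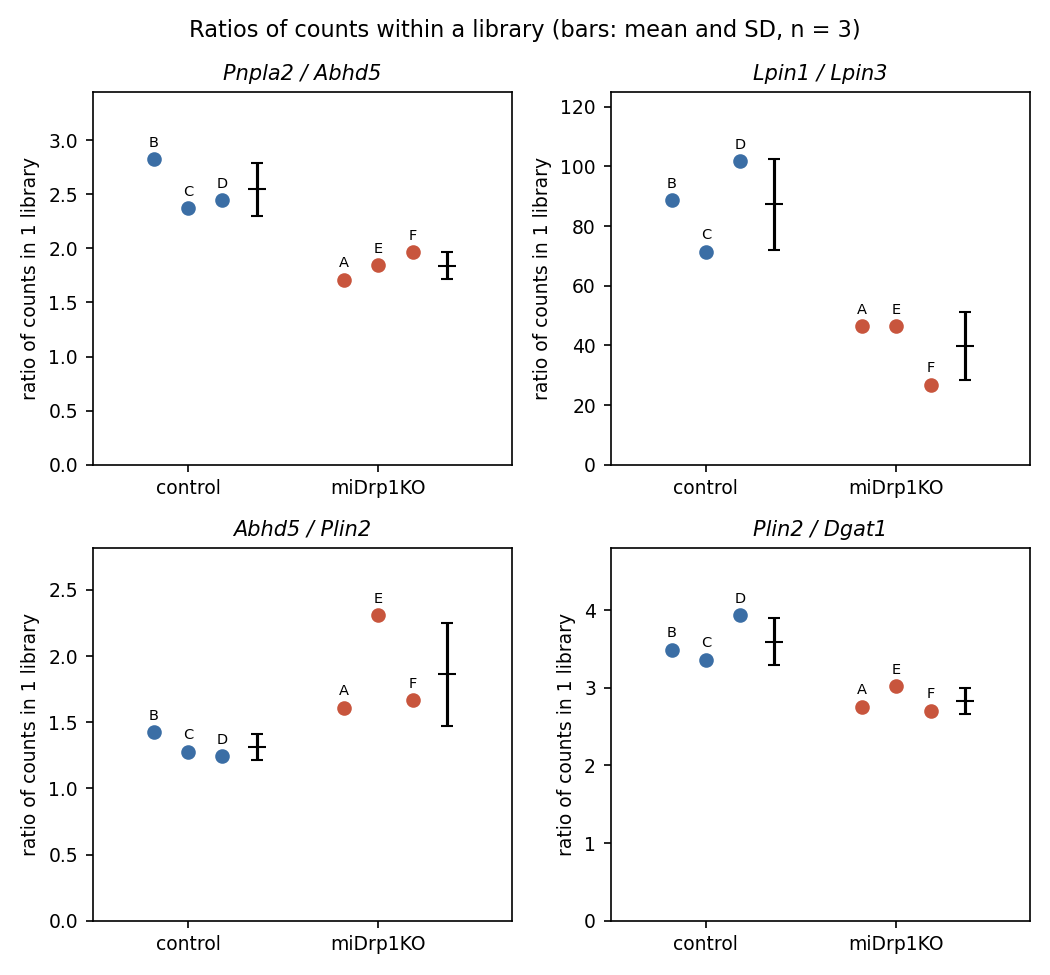
Ratios of the counts of 2 members within each library, on linear axes that start at 0. Blue is control and red miDrp1KO, letters name the libraries, and bars give mean and SD of 3 libraries. *Pnpla2* over *Abhd5*, *Lpin1* over *Lpin3* and *Plin2* over *Dgat1* are lower in every miDrp1KO library, and *Abhd5* over *Plin2* is higher. Only ratios that did not overlap are shown, and those with *Lpin1* or *Pnpla2* are a description.

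Levels can be compared between genes only per length of exon. On that scale, in CPM per kilobase, the control means were 34.7 for *Lpin1*, 31.2 for *Pnpla2*, 8.01 for *Plin2*, 7.03 for *Mgll*, 6.19 for *Abhd5*, 3.17 for *Plin5*, 2.56 for *Dgat1*, 1.05 for *Lpin3* and 0.338 for *Lpin2*. Neighbours in this order overlapped in the control libraries for *Lpin1* and *Pnpla2* and for *Plin5* and *Dgat1*. In the miDrp1KO libraries *Lpin1* and *Pnpla2* overlapped again (21.0 ± 4.48 and 21.8 ± 1.72 CPM per kilobase, SD, n = 3), and so did *Plin2* with *Mgll*, *Mgll* with *Abhd5* and *Plin5* with *Dgat1*. *Plin2*, which was above *Mgll* and *Abhd5* in the control means, was below both in the miDrp1KO means (5.59 against 6.14 and 6.02 CPM per kilobase).

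**Figure D3:**
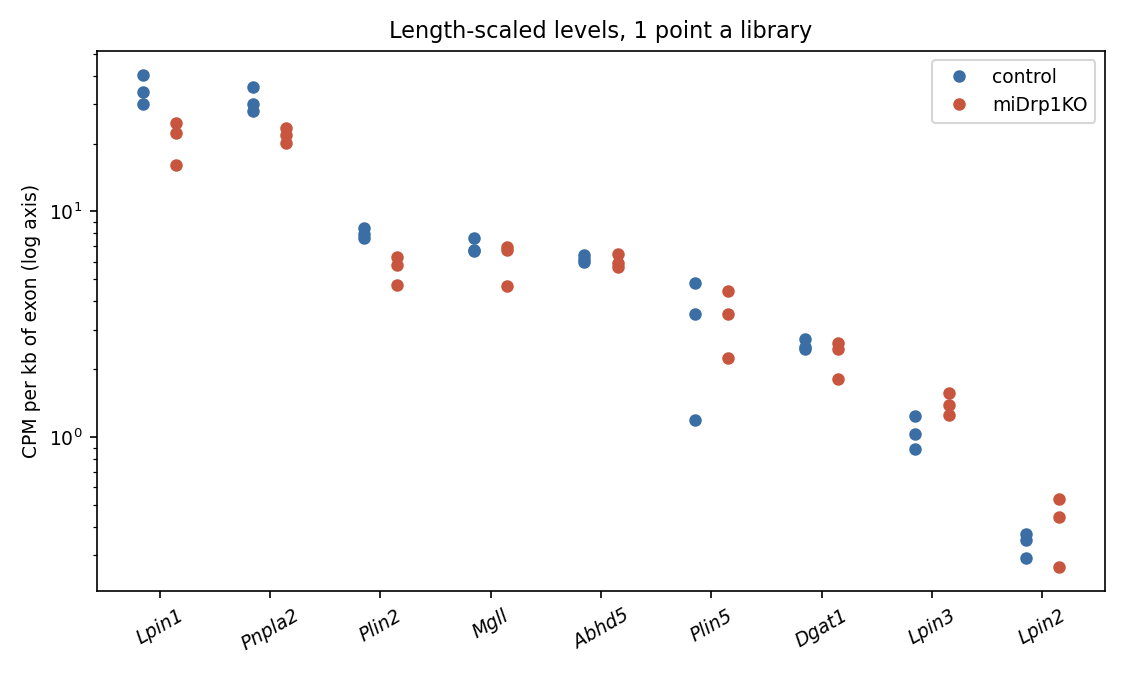
Length-scaled level of each tested member, in CPM per kilobase of exon on a log axis, with 1 point for each library (blue control, red miDrp1KO) and genes in order of their control mean. *Lpin1* and *Pnpla2* stand above the other members in all 6 libraries, and *Lpin2* is the lowest.

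The rest of the pathway was read from 40 other triglyceride genes grouped by function, of which 37 were tested. Of these, 23 had a fold change below 0 (48% of all genes tested) and 14 above 0, with a median log2 fold change of -0.14. None passed the test over all genes with edgeR or limma voom, while DESeq2 called *Gpam* and *Plin1* at its default settings. It called neither without independent filtering, and *Gpam* alone with that filtering set to the threshold. At an unadjusted p under 0.05, 6 were lower and 0 higher, where the shares over all genes tested were 6.22% lower and 4.68% higher. Without miDrp1KO replicate F the count in either direction went from 6 to 3, and without miDrp1KO replicate A to 9.

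Of the 8 other lipases tested, 7 were below 0 (48% of all genes tested), and 2 of them had an unadjusted p under 0.05 (6.22% of all genes, lower). *Lipe*, the gene of hormone-sensitive lipase, was at 16.1, 20.6 and 20.6 CPM in B, C and D and at 13.9, 8.92 and 12.5 CPM in A, E and F. The groups did not overlap (log2 fold change -0.70, SE 0.20, edgeR adjusted p = 0.370). *Pnpla7*, a lysophospholipase, had a log2 fold change of -0.56 (SE 0.21). The related *Pnpla6* was the exception in direction, with all miDrp1KO libraries above all controls (log2 fold change 0.36, SE 0.21).

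Of the 18 other synthesis genes tested, 10 were below 0 (48% of all genes tested), and 3 were lower at an unadjusted p under 0.05 (6.22%). These were *Gpam*, *Gpat3* and *Gpat4*, which code for glycerol phosphate acyltransferases. *Gpat2*, another gene of that family, had a log2 fold change of 0.12 (SE 0.45) and overlapped. *Gpam*, the gene of the mitochondrial enzyme, was at 225, 193 and 232 CPM in B, C and D and at 134, 155 and 120 CPM in A, E and F, with no overlap. Its log2 fold change was -0.67 (SE 0.18), with an adjusted p of 0.362 in edgeR and of 0.0450 in DESeq2 at its default settings. *Gpat3* and *Gpat4*, the enzymes of the endoplasmic reticulum, had log2 fold changes of -0.75 (SE 0.19) and -0.36 (SE 0.15), also without overlap. *Dgat2*, which shares the last step with *Dgat1*, had a log2 fold change of 0.10 (SE 0.40).

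Of the 11 other droplet protein genes tested, 6 were below 0 (48% of all genes tested). *Plin1* alone had an unadjusted p under 0.05, in the lower direction (6.22% of all genes). *Plin1*, the perilipin of fat cells, was at 14.0, 25.8 and 22.8 CPM in B, C and D and at 12.6, 4.83 and 10.5 CPM in A, E and F. Its log2 fold change was -1.17 (SE 0.38), with an adjusted p of 0.392 in edgeR and of 0.0381 in DESeq2 at its default settings. *Plin4*, chosen here after its values were seen, was at 548 CPM in A, among the controls, and at 284 and 159 CPM in E and F. Its log2 fold change of -0.66 (SE 0.40) did not pass the test (edgeR adjusted p = 0.577).

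**Figure D4:**
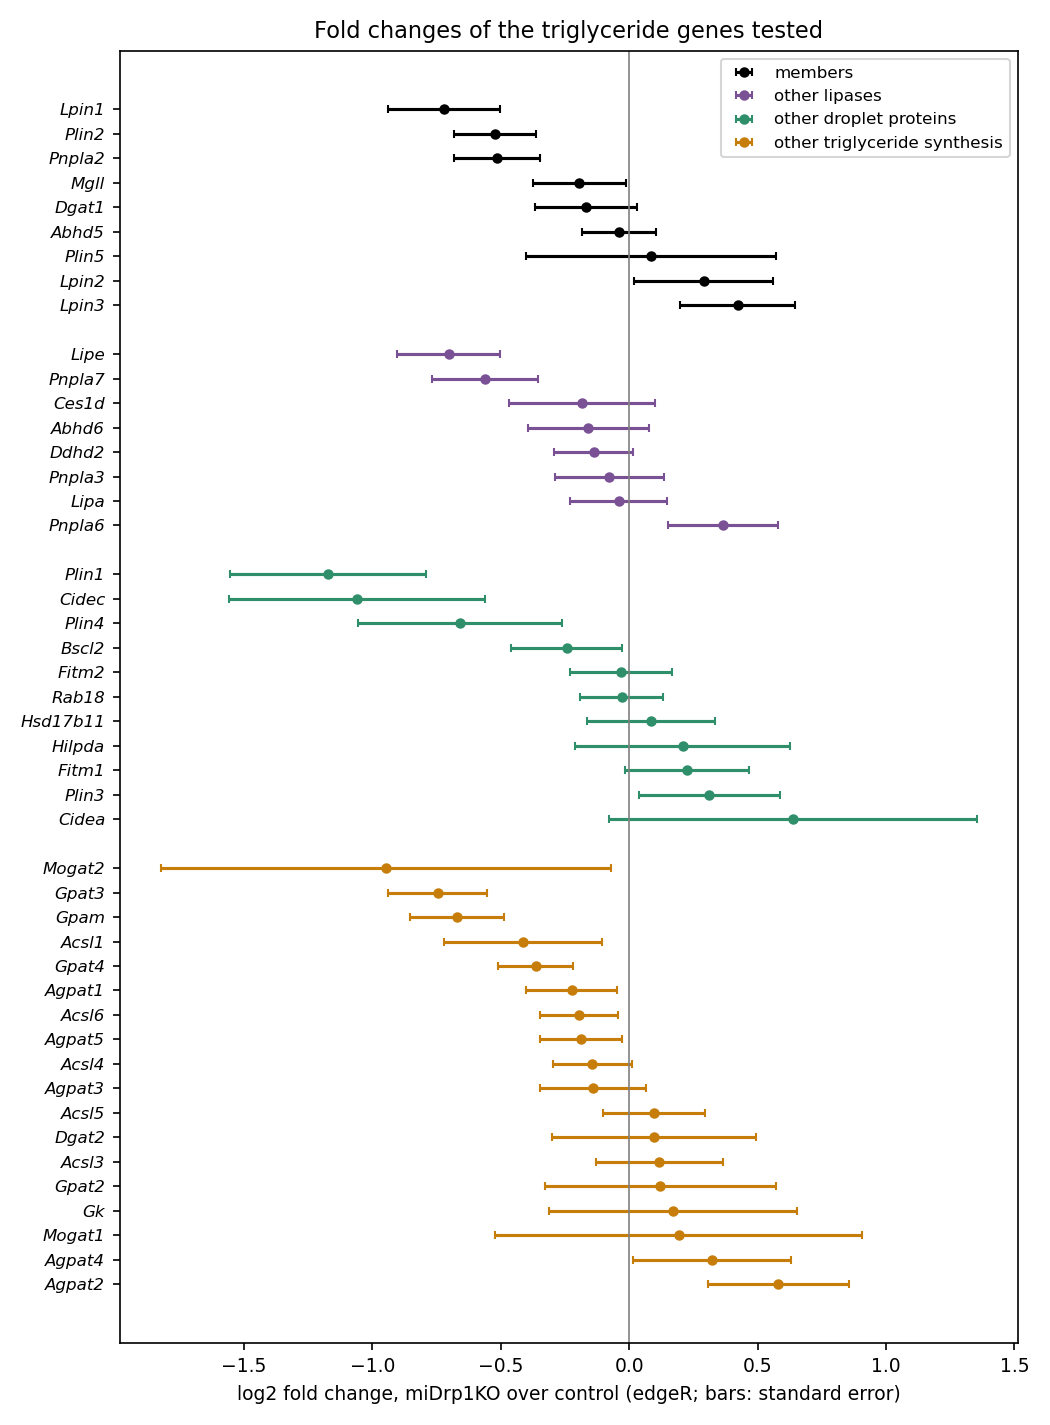
Log2 fold change, miDrp1KO over control, of the tested members and of the other triglyceride genes by function, with bars of 1 standard error derived from edgeR's F statistic. Values below 0 are lower in miDrp1KO. *Lpin1*, *Pnpla2*, *Plin2*, *Lipe*, *Pnpla7*, *Gpam* and *Gpat3* lie between -0.75 and -0.52 with standard errors of 0.16 to 0.22. *Plin4* lies in the same range with a standard error of 0.40, and *Plin1* at -1.17 with one of 0.38. *Lpin3* is the highest member.

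Markers of fat cells were read beside the members. Of the 12 adipocyte markers, 11 were tested and 9 were below 0 (48% of all genes tested). *Adipoq*, *Cfd*, *Pparg* and *Plin1* were lower at an unadjusted p under 0.05, as were 6.22% of all genes tested. None passed the test over all genes in edgeR, and DESeq2 called *Adipoq* and *Plin1* at its default settings, *Adipoq* alone without independent filtering and *Cfd* alone with filtering set to the threshold. The median log2 fold change was -0.89. The summed level ran from 439 to 707 CPM in control and from 293 to 422 CPM in miDrp1KO libraries, and no marker was at 0 in all libraries. *Fabp4* was the largest part of the sum in each library, at 243, 296 and 270 CPM in B, C and D. In A, E and F it was at 174, 213 and 226 CPM. *Plin1*, *Cidec* and *Cidea* are in this list and among the droplet genes alike, and *Lpin1*, *Pnpla2*, *Plin2* and *Lipe* are known to be expressed in fat as well as in muscle fibres. In bulk muscle, fewer cells of a type and less RNA in each cell cannot be told apart. The part of fat cells in the lower members was not tested. Within the control group *Adipoq*, the gene of adiponectin, was lowest in B (23.9 CPM), the library with the highest *Pnpla2* but also with the lowest *Lpin1*, *Plin2* and *Lipe* of the controls. Within the miDrp1KO group *Adipoq* was lowest in E (9.78 CPM), which was also lowest in *Plin2* and *Lipe* and highest in *Pnpla2*.

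**Figure D5:**
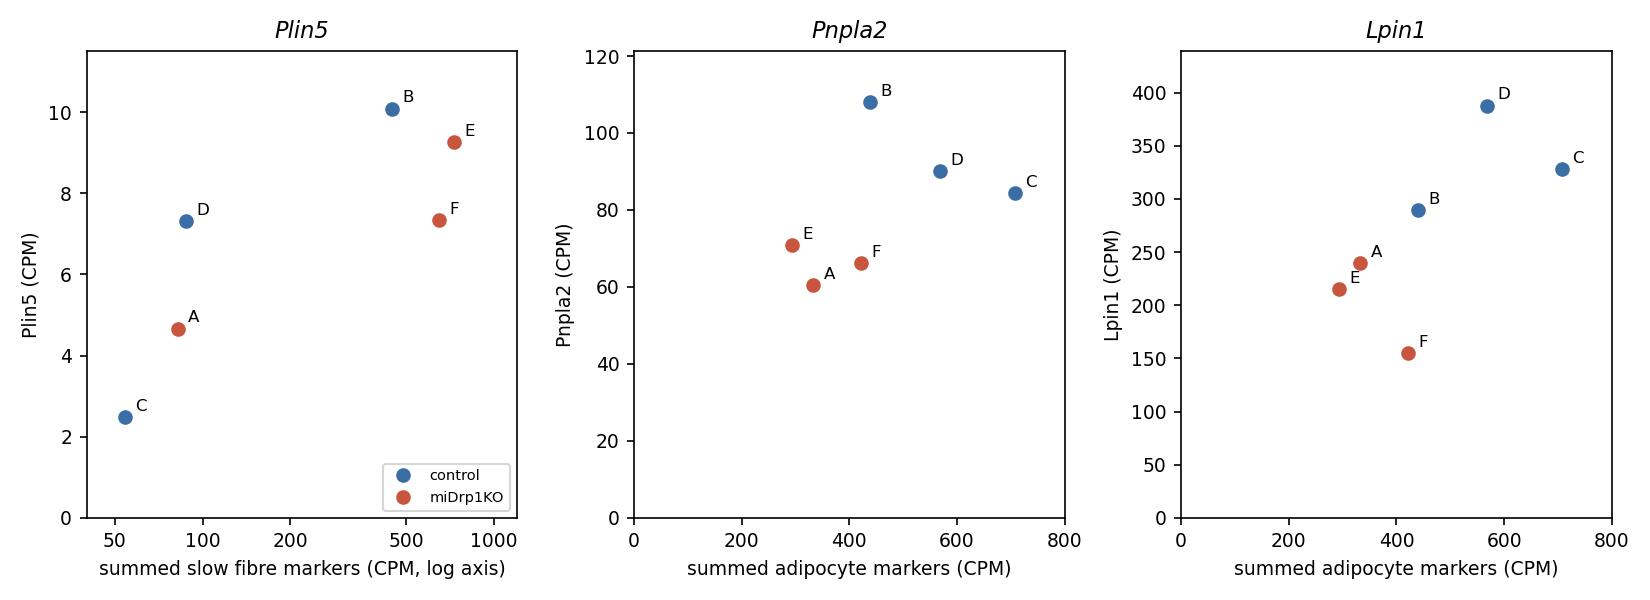
*Plin5* against the summed slow fibre markers (log axis), and *Pnpla2* and *Lpin1* against the summed adipocyte markers (linear axes), all in CPM, with 1 point for each library (blue control, red miDrp1KO). *Plin5* is lowest in C and A, where slow fibre markers are low, while D, also low in these markers, is near F in *Plin5*. The adipocyte sums run from 439 to 707 CPM in control and from 293 to 422 CPM in miDrp1KO libraries.

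Markers of other cells were read in the same way. The 12 myofibre markers had sums of 258767 to 313456 CPM in control and 123823 to 238689 CPM in miDrp1KO libraries, which did not overlap. Of the 12, 10 were below 0 (48% of all genes tested), 4 of them without overlap (10.3% of all genes), and the median log2 fold change was -0.55. The part of these markers in the lower members was not tested. The fast fibre genes *Myh4* and *Actn3* were lower at an unadjusted p under 0.05 (log2 fold changes -1.29 and -0.95), and neither passed the edgeR test over all genes. DESeq2 called *Myh4* at its default settings (adjusted p = 0.0187), both genes with filtering set to the threshold, and neither without independent filtering. Of 12 macrophage markers, 5 were below 0 (48% of all genes tested) and 7 above. *Lyz2*, *C1qa*, *C1qb* and *C1qc* were higher at an unadjusted p under 0.05 (4.68% of all genes tested), but none of the 12 passed the edgeR test over all genes. The summed level of the 12 overlapped, at 179 to 321 CPM in control and 264 to 300 CPM in miDrp1KO libraries.

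Genes that work with lipin 1 were read as well, together with *Nr3c1*, the glucocorticoid receptor gene. Of these 7 genes, all tested, 4 were below 0 (48% of all genes tested) and 3 above. The median log2 fold change was -0.05, and none of the 7 had an unadjusted p under 0.05. *Ctdnep1*, the gene of the phosphatase that acts on lipin, was at 23.3, 22.7 and 21.4 CPM in B, C and D. All miDrp1KO libraries were just below these, at 21.3, 18.3 and 20.8 CPM in A, E and F (log2 fold change -0.16, SE 0.15, edgeR adjusted p = 0.730). *Ppargc1a*, the gene of Pgc1α, had a log2 fold change of 0.25 (SE 0.30), *Esrra* one of 0.22 (SE 0.23) and *Ppara* one of -0.14 (SE 0.42). *Nr3c1* had one of -0.05 (SE 0.18).

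Of 18 genes of the response to fasting and glucocorticoids, which is known to raise *Lpin1* and *Pnpla2*, 11 were below and 7 above 0. Their median log2 fold change was -0.07, and 48% of all genes tested were below 0. None passed the test over all genes in edgeR, and *Mt2* alone was called by DESeq2, without independent filtering. Library A stood apart for some of these genes. *Cebpd*, *Mt1* and *Ddit4* were at 34.3, 24.4 and 10.8 CPM in A, and at no more than 13.2, 9.77 and 3.07 CPM in any other library. *Ucp3*, a mitochondrial carrier gene of fasted muscle (-0.64, SE 0.21), and *Irs2*, an insulin receptor substrate gene (-0.53, SE 0.22), were lower at an unadjusted p under 0.05, as were 6.22% of all genes tested. The groups did not overlap for *Ucp3* and did for *Irs2*, where E was above B. *Mt2*, a metallothionein gene, had the opposite direction and was higher at an unadjusted p under 0.05, as were 4.68% of all genes tested. It was at 0.616, 1.38 and 1.68 CPM in B, C and D and at 9.82, 3.46 and 3.84 CPM in A, E and F (log2 fold change 2.16, SE 0.51, edgeR adjusted p = 0.362).

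The genes with the pattern most like that of *Lpin1* were sought among 7178 tested genes with a mean of at least 10 CPM, by the mean absolute difference over the 6 libraries of log2 CPM relative to the control mean of each gene. They were *Man2a2*, a Golgi mannosidase gene (0.06), *Zadh2* (0.08), *Ccdc6* (0.08), *Tbc1d10b* (0.08) and *Atg9a*, an autophagy gene (0.09). For *Pnpla2* they were *Gna12* (0.03) and *Rai14* (0.03), *Dhrs3* (0.06), *U2af2*, a splicing factor gene (0.06), and *Grsf1*, an RNA-binding protein gene (0.07). *Man2a2*, for example, was at 164, 195 and 199 CPM in B, C and D and at 140, 117 and 87.6 CPM in A, E and F. Of the members, only *Lpin1*, *Pnpla2*, *Abhd5*, *Plin2* and *Mgll* reached that mean, and none was among these nearest genes. For *Lpin1*, *Plin2* ranked 308th and *Pnpla2* 1547th. For *Pnpla2*, *Mgll* ranked 521st, *Plin2* 945th and *Lpin1* 3356th. Both patterns were chosen on the contrast, so the likeness is a description over 6 libraries.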

How the data were processed

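RNA-seq was performed on total RNA of quadriceps muscle from 3 control and 3 miDrp1KO mice. Libraries were depleted of ribosomal RNA with a stranded kit and sequenced in pools. Which library was in which pool is not given in the sources used here. The authors checked reads with FastQC, aligned them to GRCm38, counted them per gene with Rsubread and deposited raw counts, 1 file for each library. The submitters' processing notes name DESeq2 1.30.0. Groups were taken from the genotype label and no library was left out.

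Counts were tested here in R 4.3.3 with edgeR 4.0.16 (TMM factors, filterByExpr by group, quasi-likelihood fit with the robust option, p adjusted by Benjamini-Hochberg over 16483 genes, threshold 0.05). CPM use the TMM library sizes, and CPM per kilobase the union of exons in GENCODE vM21, matched by Entrez identifier. A fold change is miDrp1KO over control. Its SE was derived as the absolute log2 fold change over the square root of the F statistic of the quasi-likelihood test. The biological coefficient of variation was 0.252. Single genes were also put through an exact two-sided permutation test, with 20 splits of the mice. Poisson intervals (95%) and the floor of 3 counts cover counting error only. Likeness to *Lpin1* and *Pnpla2* used log2 CPM with a pseudocount of 0.0678 CPM. The 16 alternatives were DESeq2 1.42.0 with and without independent filtering and with that filtering set to the threshold of 0.05 (the last chosen after seeing the data), limma voom (limma 3.58.1), RLE and upper quartile factors, no filter on low counts, at least 10 counts in every library, ribosomal RNA genes and *Lars2* left out, a covariate for the share of ribosomal RNA, and 6 fits that each left out 1 replicate. Scripts were tested on simulated data. Promoters came from RefSeq (GRCm38.p6): 9 of the 10 members matched, with 14 windows, and *Dgat1* had no entry.

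The members and lists were chosen with earlier results of these data known. Genes were named by a rule: all members, *Dnm1l*, genes of the other lists with an unadjusted p under 0.05, and the 5 genes most like *Lpin1* and *Pnpla2*. Other named genes (*Pnpla6*, *Gpat2*, *Dgat2*, *Plin4*, *Cidec*, *Cidea*, *Fabp4*, *Ctdnep1*, *Ppargc1a*, *Esrra*, *Ppara*, *Nr3c1*, *Cebpd*, *Mt1*, *Ddit4*) were chosen after their values were seen. *Ldaf1*, in the droplet list, was not matched under that symbol.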

Additional observations from a re-analysis of the deposited data

How the results depend on the processing

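*Lpin1* (log2 fold change -0.83 to -0.54), *Pnpla2* (-0.61 to -0.39), *Plin2*, *Dgat1* (-0.31 to -0.02) and *Mgll* (-0.27 to -0.01) kept a negative sign in all 16 alternatives, and *Lpin2* (0.10 to 0.54) and *Lpin3* (0.33 to 0.52) a positive one. *Plin2* had an unadjusted p under 0.05 in all 16. In the higher direction, *Lpin2* had one only without miDrp1KO replicate A, and *Lpin3* only with upper quartile factors. The median over the members ran from -0.25 to -0.01. *Abhd5* turned positive with upper quartile factors (0.048), with at least 10 counts in every library (0.0022), without control replicate B (0.0045) and without miDrp1KO replicate F (0.021), and ran from -0.095 to 0.021 when 1 replicate was left out. *Plin5* ran from -0.30, without control replicate C, to 0.51 when 1 replicate was left out, and was -0.16 without miDrp1KO replicate E. Upper quartile factors moved the median of all genes from 0.02 to 0.11.

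Of all genes, 2 were called by edgeR, 82 by DESeq2, 32 by DESeq2 without independent filtering, 121 with that filtering set to the threshold, 8 with no filter on low counts, 1 with a covariate for the ribosomal RNA share, and 1 to 7 when 1 replicate was left out. DESeq2 gave an adjusted p to 6962 of 26457 genes and to 5 of 9 members, and with filtering set to the threshold to 2860 genes and 2 members. Its count of members called, 1, comes from a gene chosen on this contrast and is no test. None of the 7 tested members other than *Lpin1* and *Pnpla2* was called in any of the 16 alternatives. DESeq2 gave no adjusted p to *Lpin2*, *Lpin3*, *Plin5* and *Dgat1* at its default settings, and to none of the 7 with filtering set to the threshold. Those fits could not have called these genes. The other triglyceride genes with an unadjusted p under 0.05 numbered 3 to 9 when 1 replicate was left out, with 3 without miDrp1KO replicate F. The cause of these differences was not tested.

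With 3 mice in each group an exact permutation p cannot go below 0.1. No paired analysis was run, since the labels tie no control library to a miDrp1KO library.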
